A study of Rattus norvegicus with 6 samples.

Results

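The genes described here are those whose values were highest in the 2 rats given exosomes after a crush injury of the pancreas. They number 100 of 34001 genes in the deposited table. Pancreatic RNA of 6 Sprague-Dawley rats, 2 in each of 3 groups, was collected 24 h after surgery. In the group labelled Control, a laparotomy was made, the gland was only turned with cotton swabs, and 1 ml of saline went into a tail vein. In the group labelled TP, for traumatic pancreatitis, an impactor crushed the gland (3 cm2, 10 kg) and the rats had 1 ml of saline. In the group labelled TP+hucMSC-Exs the same crush was paired with exosomes, small vesicles shed by cells, here those of mesenchymal stem cells of human umbilical cord, given by tail vein as 10 μg for each 100 g. All 6 rats thus had abdominal surgery and an injection. The labels give neither age nor sex. The comparison of the exosome-treated with the untreated injured rats is the one that bears on the exosomes. No saline volume is given for the treated group, so exosomes and the fluid they were given in cannot be told apart. No group analysed here received exosomes without injury.

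Members were chosen from measured values. TPM are transcript abundances corrected for length and library size that sum to the same total in every library. Genes with a mean of at least 1 TPM were kept, 11477 in all, and each library was divided by its median ratio to the geometric mean of all libraries, over the 13243 genes above 0 in all 6. On the scale of log2(scaled value + 0.5), the lower exosome-treated library had to lie at least 1 above the highest of the other 4 libraries. This distance is called the margin. Of 11477 genes 150 met the rule, 1.31%, and 50 were dropped by name: 21 with no symbol, 12 with a clone or locus name, and 17 of gene families such as keratins, claudins and Reg lectins. The margin is the choice itself, so the differences between the exosome-treated and the other libraries are given as description, with no test. Margins ranged from 1.00 to 4.96, with a median of 1.31; 20 members reached 2 and 64 lay below 1.5. Just inside the limit stood Micall2 at 1.00 and Arvcf at 1.01, and just outside it Casp12 at 0.99, Prrg4 at 0.99 and Cyp27a1 at 0.98. The same rule picked 25 genes for the control pair and 16 for the TP pair, 17 and 5 of them with kept names.

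Many of the members encode proteins of simple epithelia, the single-layered sheets that line ducts, glands and mucosal surfaces. Such cells hold to each other through tight and adherens junctions, which seal the gap between cells and carry the cadherin belt, and to the basement membrane through integrins and laminins. Acinar cells, the enzyme-secreting cells that make up most of the pancreas, are themselves epithelial, and in pancreatitis they are known to lose secretory genes and take on features of duct cells. Interferon-induced genes form another known programme of injured tissue, in which cells raise antiviral proteins and the machinery that loads peptides on MHC class I.

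The libraries differed in ways that touch the choice. The factor used for scaling was 5.44 for TP replicate 2, so its values entered the rule after division by 5.44. For the exosome-treated libraries the factor was 1.20 and 1.47, for the controls 0.364 and 0.647, and for TP replicate 1 it was 0.479. In TPM the treated pair therefore stands further above the controls and TP replicate 1 than on the scaled values. In TPM as deposited, TP replicate 2 was the highest of the 6 libraries for 91.3% of the 11477 genes. It also stood apart in its markers. The 21 acinar genes of the marker list summed to 167278 TPM in TP replicate 2. They summed to 533665 and 486943 TPM in the exosome-treated libraries, and to between 619429 and 677988 TPM in the controls and TP replicate 1. The treated pair thus also lay below the controls in acinar sum, and its part in the margins was not tested. The 7 adipocyte genes summed to 3990 TPM in TP replicate 2, against 22.1 to 44.0 TPM elsewhere. In bulk tissue, fewer cells of a type and less RNA per cell cannot be told apart. TPM keep no sequencing depth, so no counting error can be given.

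The name of the set therefore holds on the scaled values, and for part of it only in TPM as deposited. Both exosome-treated libraries were the highest in TPM for 64 of the 100 members. For 35 members TP replicate 2 lay above the lower exosome-treated library, and Vsig10 was tied with it at 3.43 TPM. Over all tested genes the exosome-treated pair lay above the other 4 libraries in 4.65% in TPM and in 12.4% on the scaled values. TP replicate 2 was the highest library in TPM for 22 members and the lowest for 12, against 3.02% of all tested genes for the lowest. The rule holds TP replicate 2 below the treated pair, which favours low values there, so nothing is read from these counts. Below, values are TPM as deposited, and margins are on the scaled log2 scale.

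**Figure D1:**
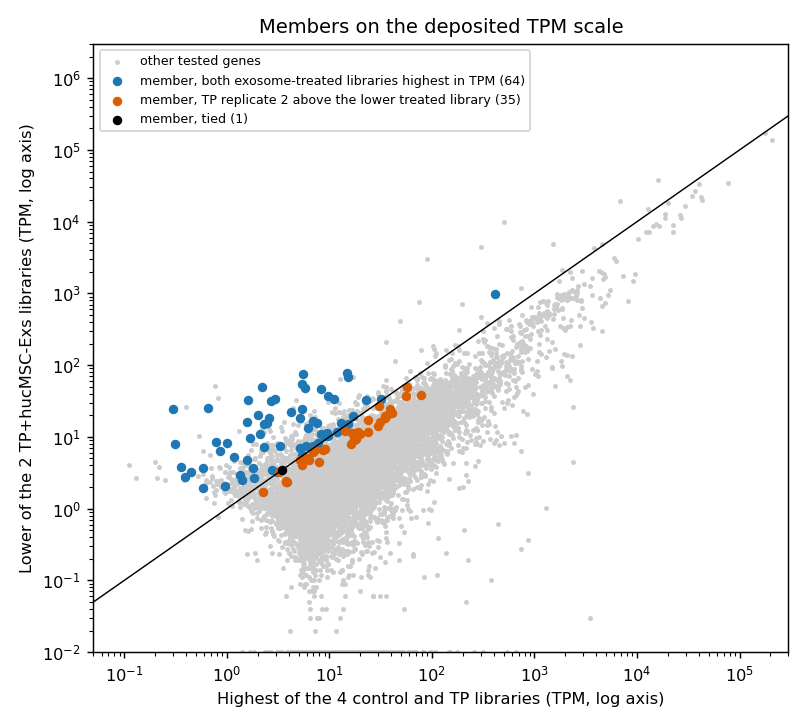
Each point is a gene, with the highest of the 4 control and TP libraries on the horizontal axis and the lower of the 2 TP+hucMSC-Exs libraries on the vertical axis, both in TPM on log axes. The line marks equal values: 64 members lie above it, 35 lie below it, and 1 lies on it.

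Slc26a9 had the widest margin. It encodes a chloride transporter of gastric and airway epithelium and stood at 0.01 and 0.05 TPM in the controls, 0.04 and 0.30 TPM in the TP libraries and 24.4 and 25.9 TPM in the exosome-treated libraries, with a margin of 4.96. The 2 treated libraries agreed closely and all others lay at or below 0.30 TPM. Anxa10, an annexin known from gastric mucosa, stood at 0.59 and 0.41 TPM in the controls, 0.65 and 0.19 TPM in the TP libraries and 25.8 and 25.2 TPM in the exosome-treated libraries. Tspan1, a tetraspanin of epithelial membranes, stood at 0.39 and 0.53 TPM in the controls, 2.21 and 0.14 TPM in the TP libraries and 49.6 and 78.6 TPM in the exosome-treated libraries, and Gpx2, the glutathione peroxidase of the gastrointestinal epithelium, at 0.18 and 0.26 TPM in the controls, 0.31 and 0.18 TPM in the TP libraries and 8.09 and 16.0 TPM in the exosome-treated libraries. In these 3 genes the treated libraries lay far above a low level shared by the other 4, and only for Tspan1 was TP replicate 1 set off from the controls, at 2.21 TPM. Of the marker list of stomach and intestine little was measured. Of its 11 genes found in the table, 7 (Gkn1, Gkn2, Tff1, Cdx1, Fabp2, Alpi and Apoa4) were listed at 0 in every library, and the sum of the list lay between 0 and 0.79 TPM. None of them reached the filter. Actg1 and Tmsb10, genes of the cytoskeleton that every cell uses, were also listed at 0 in all 6 libraries, so a listed 0 cannot be read as lack of expression.

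Neurl3, a ubiquitin ligase, stood at 0.20 and 2.05 TPM in the controls, 1.15 and 15.3 TPM in the TP libraries and 67.6 and 95.2 TPM in the exosome-treated libraries, with a margin of 3.96. Serinc2, of a family of membrane proteins, stood at 0.86 and 0.52 TPM in the controls, 1.94 and 2.70 TPM in the TP libraries and 31.8 and 49.7 TPM in the exosome-treated libraries. For both, TP replicate 2 was the highest of the other libraries in TPM and still lay well below the treated pair. Pdzk1ip1, a small membrane protein of epithelial cells, was 1.45, 1.75, 2.29, 0.18, 15.0 and 28.2 TPM in the order control, TP and TP+hucMSC-Exs, with replicate 1 before 2 in each. Anxa3, another annexin, showed the other pattern at 0.42, 1.90, 0.86, 16.8, 11.4 and 14.6 TPM in the same order, with TP replicate 2 above both treated libraries. On the list of NF-kappaB targets and feedback genes Neurl3 was the 1 member of 26 tested genes, and on the antioxidant list Gpx2 was the 1 of 16.

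**Figure D2:**
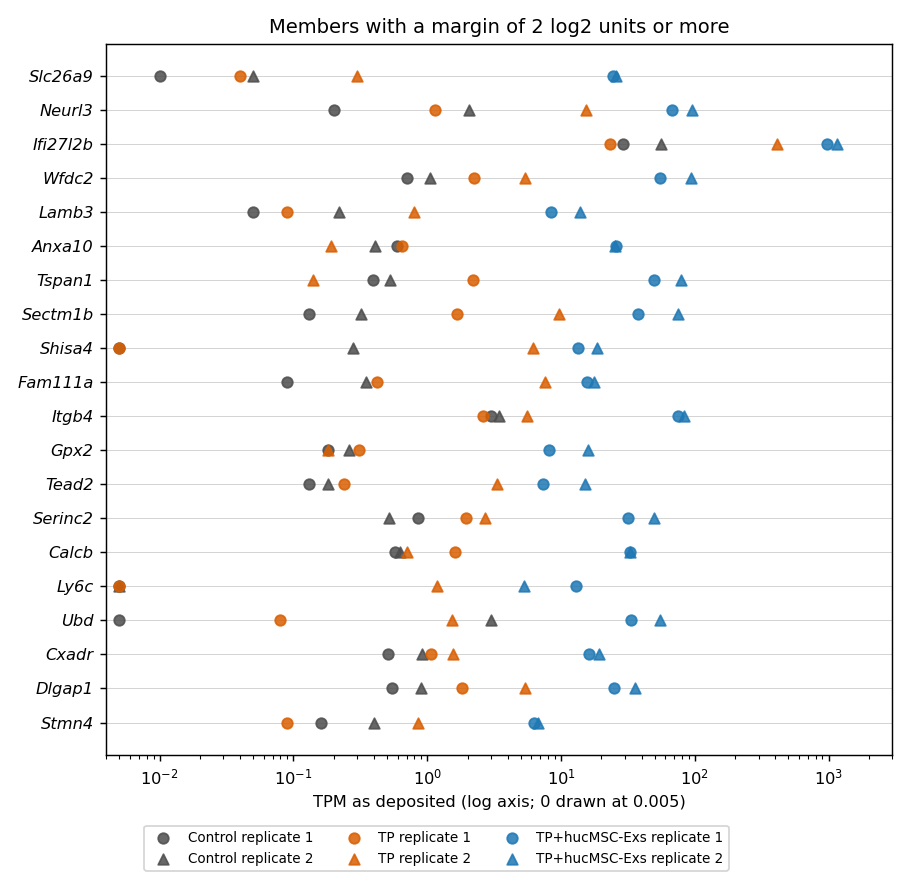
TPM as deposited on a log axis for the 20 members with a margin of 2 or more; colours are groups, circles replicate 1 and triangles replicate 2, and a value of 0 is drawn at 0.005. In all 20 the 2 blue symbols of the exosome-treated libraries lie to the right of the other 4, with TP replicate 2 the nearest in many.

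Genes of cell-to-cell junctions and polarity made up 12 members, with a median margin of 1.06. Cdh1, E-cadherin, the adhesion receptor of the adherens junction, stood at 4.22 and 5.78 TPM in the controls, 5.27 and 2.28 TPM in the TP libraries and 48.3 and 57.2 TPM in the exosome-treated libraries. Epcam, an adhesion protein of epithelial surfaces, stood at 10.3 and 11.4 TPM in the controls, 14.9 and 3.71 TPM in the TP libraries and 78.8 and 111 TPM in the exosome-treated libraries. Both treated libraries lay above all others, and TP replicate 2 was the lowest. Cxadr, an adhesion protein of the tight junction, stood at 0.51 and 0.92 TPM in the controls, 1.07 and 1.56 TPM in the TP libraries and 16.3 and 19.4 TPM in the exosome-treated libraries and had the widest margin of the group, 2.33. Crb3, a polarity protein of the apical membrane, and Lsr, a receptor that places tight junctions where 3 cells meet, were 2.86, 3.59, 4.21, 0.55, 21.9 and 27.2 TPM and 6.84, 6.99, 8.21, 4.49, 47.2 and 60.6 TPM in the same order of libraries. The treated libraries were again the highest and TP replicate 2 the lowest. On the scaled log2 values the gap was narrower: Lsr stood at 4.27 and 3.50 in the controls and at 5.32 and 5.39 in the treated pair.

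F11r, also called JAM-A, a tight-junction adhesion protein, stood at 2.95 and 4.76 TPM in the controls, 3.62 and 22.8 TPM in the TP libraries and 32.3 and 37.2 TPM in the exosome-treated libraries. Nectin2, an adhesion receptor of adherens junctions, stood at 4.17 and 5.59 TPM in the controls, 5.02 and 31.6 TPM in the TP libraries and 33.7 and 39.3 TPM in the exosome-treated libraries. Here TP replicate 2 lay below the treated pair but far above the remaining 3 libraries. Jup, plakoglobin, which links cadherins to the cytoskeleton, was 2.71, 4.07, 2.99, 17.0, 19.5 and 23.5 TPM in the same order. Tjp3, a scaffold of the tight junction, and Arvcf, a catenin that binds cadherins, reached 9.61 and 11.2 TPM and 7.29 and 10.5 TPM in the treated libraries, against at most 2.32 TPM elsewhere. Pvr, a nectin-like receptor, and Micall2, which acts in junction assembly, differed from the rest of the group: TP replicate 2 held 18.3 and 3.89 TPM, above both treated libraries. In all, 10 of the 12 were highest in the treated pair also in TPM, and 4 were lowest in TP replicate 2.

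Promoter sequences from RefSeq (build GRCr8, 250 bases before to 50 after a gene's start) were matched to 75 of the 100 members by symbol or gene identifier, the first listed start being used. The AP-1 motif TGANTCA, bound by Fos and Jun proteins, was found on either strand in 10 of 75 promoters (13.3%), against 7.3% of 27457 promoters of all genes. The core of the interferon-stimulated response element, GAAA repeated with any 2 bases between the repeats, was found in 6 of 75 (8.0%), against 3.8%. The STAT motif TTCNNNGAA was found in 2 of 75 (2.7%, against 8.7%), and the TEAD motif CATTCC in 9 of 75, against 13.9%. The STAT and TEAD matches of Gpx2 overlapped. The grainyhead motif AACCGGTT was found in 0 of 75, against 0.2%. The E-box CACCTG was found in 31 of 75 (41.3%, against 18.7%), and the GC box GGGGCGGGG in 22 (29.3%, against 10.4%). The median GC content of the members' promoters was 64.0%, against 52.3% over all promoters, which bears on the counts of GC-rich motifs. Matches describe letters in this window and show no binding.

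The AP-1 matches fell in members of several roles, among them 3 junction genes. The promoters of Anxa10, Epcam, Lsr and F11r are shown with the AP-1 motif in capitals; they are the junction genes that hold the motif and the mucosal member that holds it at 2 places. Counted from the gene's start, the motif begins at -172 and -13 in Anxa10, -141 in Epcam, -146 in Lsr and -117 in F11r.
Anxa10: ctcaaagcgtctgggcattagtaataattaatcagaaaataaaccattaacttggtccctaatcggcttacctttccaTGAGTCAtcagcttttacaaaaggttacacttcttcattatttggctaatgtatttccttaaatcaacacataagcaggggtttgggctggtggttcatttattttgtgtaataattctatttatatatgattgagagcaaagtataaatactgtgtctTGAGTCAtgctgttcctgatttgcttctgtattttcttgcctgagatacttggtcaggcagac
Epcam: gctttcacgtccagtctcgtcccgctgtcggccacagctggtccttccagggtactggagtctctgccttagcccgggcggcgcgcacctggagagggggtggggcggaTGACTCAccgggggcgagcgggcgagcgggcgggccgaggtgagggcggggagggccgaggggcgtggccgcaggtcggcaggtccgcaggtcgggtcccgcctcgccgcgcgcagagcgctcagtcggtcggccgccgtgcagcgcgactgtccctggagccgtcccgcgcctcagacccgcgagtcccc
Lsr: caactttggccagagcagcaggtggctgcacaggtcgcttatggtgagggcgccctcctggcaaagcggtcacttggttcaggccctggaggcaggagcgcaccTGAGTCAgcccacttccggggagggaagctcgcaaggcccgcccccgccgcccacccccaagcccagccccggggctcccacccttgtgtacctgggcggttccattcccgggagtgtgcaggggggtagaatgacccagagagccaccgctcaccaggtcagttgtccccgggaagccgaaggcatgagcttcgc
F11r: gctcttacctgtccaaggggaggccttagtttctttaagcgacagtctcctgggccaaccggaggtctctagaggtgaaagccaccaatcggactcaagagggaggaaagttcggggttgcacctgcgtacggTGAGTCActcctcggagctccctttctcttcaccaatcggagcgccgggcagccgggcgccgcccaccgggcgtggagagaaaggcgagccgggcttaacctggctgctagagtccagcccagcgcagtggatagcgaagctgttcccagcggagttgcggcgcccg
Their coordinates in GRCr8 are chr16:32504775-32505074 (strand +, Anxa10), chr6:12649629-12649928 (strand -, Epcam), chr1:95329305-95329604 (strand -, Lsr) and chr13:86405979-86406278 (strand +, F11r).

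Anchorage to the basement membrane was represented by 3 genes that act together. Lamb3 is a chain of laminin-332, and Itgb4 and Itga3 are subunits of its receptors. Lamb3 stood at 0.05 and 0.22 TPM in the controls, 0.09 and 0.79 TPM in the TP libraries and 8.36 and 13.9 TPM in the exosome-treated libraries, a margin of 3.15. Itgb4 stood at 3.02 and 3.44 TPM in the controls, 2.63 and 5.54 TPM in the TP libraries and 74.5 and 83.1 TPM in the exosome-treated libraries, a margin of 2.70. Itga3 was 0.74, 0.91, 1.08, 5.13, 7.01 and 8.54 TPM in the same order. In all 3 both treated libraries lay above the other 4. Itga6, the integrin partner of Itgb4, was no member, at 1.20, 2.57, 1.51, 14.5, 6.65 and 7.86 TPM and a margin of 0.39. It is on the list of EGFR ligands and wound epithelium. Of the 22 tested genes of that list 4 were members (Phlda1 beside the 3), and 8 had a margin above 0 against 12.4% of all tested genes; in TPM it was 5, against 4.65%. Tes, a protein of focal adhesions, was highest in TP replicate 2 at 19.0 TPM.

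Genes of membrane-bound proteolysis were also found. St14 encodes matriptase, a protease of epithelial surfaces, and Spint1 its inhibitor HAI-1. St14 stood at 2.53 and 3.58 TPM in the controls, 2.78 and 11.2 TPM in the TP libraries and 34.2 and 39.1 TPM in the exosome-treated libraries. Spint1 stood at 2.56 and 2.45 TPM in the controls, 2.29 and 1.73 TPM in the TP libraries and 18.4 and 23.3 TPM in the exosome-treated libraries. Enzyme and inhibitor were both highest in the treated pair, but TP replicate 2 was the highest of the other 4 for St14 and the lowest for Spint1. Wfdc2, a secreted protein with protease-inhibitor domains and the 1 member among 11 tested genes of the mucosal defence list, stood at 0.71 and 1.05 TPM in the controls, 2.24 and 5.39 TPM in the TP libraries and 54.9 and 94.0 TPM in the exosome-treated libraries, a margin of 3.16. Of those 11 genes 2 had a margin above 0, and in TPM the treated pair was highest for 3. The median margin of the mucosal defence list was -1.02, and its most abundant genes, Tff2 and Slpi, had margins of -2.59 and -1.82. Rhbdf2, iRhom2, which guides a sheddase to the cell surface, and Lxn, an inhibitor of carboxypeptidases, were highest in TP replicate 2, at 17.6 and 30.9 TPM against 9.46 and 11.7 TPM and 16.3 and 21.8 TPM in the treated pair. On the list of protease inhibitors Spint1 was the 1 member of 18 tested genes and the 1 with a margin above 0, against 12.4% of all tested genes. In TPM the treated pair was highest for 7 of the 18, against 4.65%. Spink1 and Serpinh1, the most abundant on that list by mean TPM over the 6 libraries, had margins of -0.84 and -1.91.

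**Figure D3:**
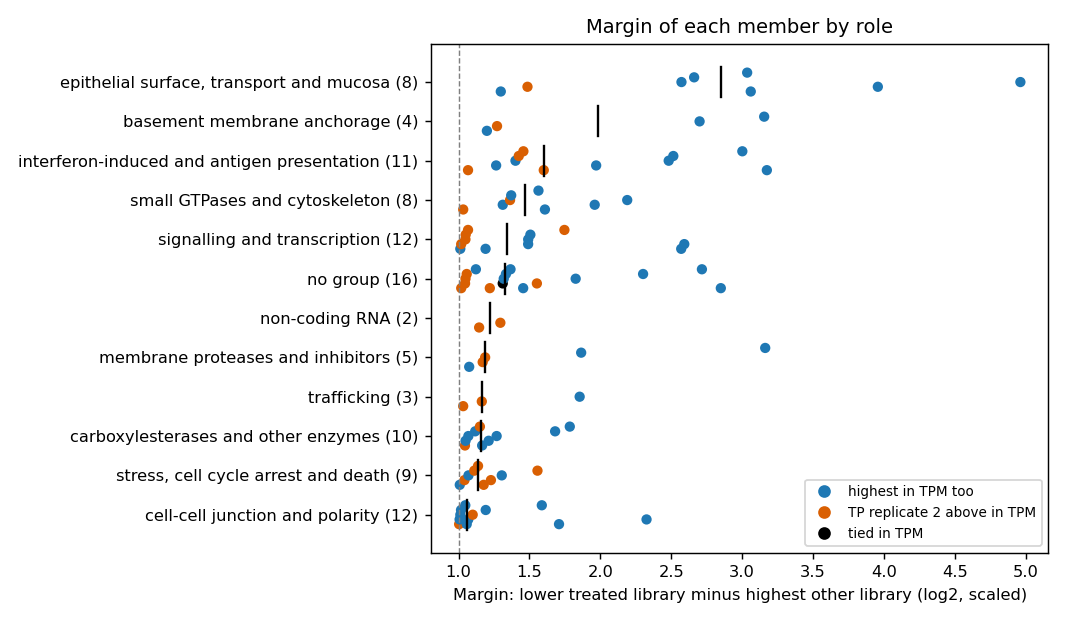
Margin of each member (log2, scaled) by role, with the number of genes in parentheses; the black bar is the median of the role and the dashed line the limit of 1. Blue points were highest in the treated pair in TPM too, and orange points were not; the 8 genes of epithelial surface, transport and mucosa have the highest median, 2.85, and the 12 junction genes the lowest, 1.06.

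The list of duct and metaplasia markers held 4 members (Tspan1, Cdh1, Epcam and Anxa3) among 19 tested genes, and its median margin was 0.03 against -0.57 over all tested genes. A margin above 0 was seen in 10 of the 19, against 12.4% of all tested genes, and in TPM in 9, against 4.65%. Elf3, an epithelial transcription factor, and Cd24, a surface protein, followed at margins of 0.95 and 0.68. Of the genes that define duct cells, Sox9 lay between 0.22 and 0.62 TPM and Cftr between 0.19 and 0.82 TPM, both below the filter. Spp1 and Lgals3, also on the list, were highest in TP replicate 2, at 557.8 and 1006 TPM against 150.0 and 108 TPM at most in the treated pair. The sum of the list lay between 67.6 and 136 TPM in the controls and TP replicate 1, at 2982 TPM in TP replicate 2, and at 663 and 930.3 TPM in the treated pair. Its part in the margins of the epithelial members was not tested.

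Genes induced by interferon and genes of antigen presentation numbered 11. The most abundant member of all, Ifi27l2b, of an interferon-induced family, stood at 29.1 and 55.9 TPM in the controls, 23.1 and 413 TPM in the TP libraries and 969 and 1147 TPM in the exosome-treated libraries. Sectm1b, a small secreted and membrane protein of immune signalling, stood at 0.13 and 0.32 TPM in the controls, 1.67 and 9.74 TPM in the TP libraries and 37.6 and 75.5 TPM in the exosome-treated libraries. Ubd, a ubiquitin-like modifier, stood at 0 and 2.98 TPM in the controls, 0.08 and 1.52 TPM in the TP libraries and 33.6 and 55.2 TPM in the exosome-treated libraries. In these 3 the treated libraries were the highest on both scales. Rtp4 and Herc6, 2 interferon-induced genes, were 0.99, 1.75, 0.78, 13.8, 14.5 and 23.8 TPM and 0.12, 0.38, 0.15, 1.42, 2.53 and 4.14 TPM in the same order, with Rtp4 in TP replicate 2 just below the lower treated library. Ly6c, a surface antigen, was listed at 0 in 3 libraries and stood at 12.9 and 5.27 TPM in the treated pair.

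The transporter subunits Tap1 and Tap2, which carry peptides to MHC class I, and the antiviral GTPase Mx2 were members on the scaled values only. Tap1 stood at 0.71 and 2.16 TPM in the controls, 0.71 and 23.9 TPM in the TP libraries and 17.2 and 23.3 TPM in the exosome-treated libraries. Tap2 stood at 1.11 and 3.61 TPM in the controls, 1.59 and 39.0 TPM in the TP libraries and 24.6 and 32.2 TPM in the exosome-treated libraries. In TPM TP replicate 2 was above both treated libraries for each, while the controls and TP replicate 1 were low. RT1-S3, a class Ib MHC gene, was 2.56, 9.44, 2.62, 55.9, 37.3 and 54.1 TPM in the same order, and RT1-N2, of the same class, 0.40, 0.70, 0.27, 1.59, 4.83 and 5.46 TPM. Of 21 tested genes of the interferon list, Tap1, Mx2 and Sectm1b were members and 9 had a margin above 0, against 12.4% of all tested genes, but in TPM the treated pair was highest for 1, Sectm1b. Its most abundant genes, Ifi27 and Psmb8, had margins of 0.75 and -0.81. Marker sums for lymphocytes were 15.1 and 27.0 TPM in the treated pair, within the 1.27 to 130 TPM of the other libraries, and those for monocytes and macrophages were 417 and 773 TPM, against 4781 TPM in TP replicate 2 and at most 145 TPM in the others. Their part in the interferon members was not tested.

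The response element core was found in Tap1, Tap2 and RT1-S3 among the interferon members, and in Itga3, Vhl and Cflar elsewhere. Both Tap promoters are shown with the core in capitals; in Tap1 it begins at -121 from the start, where it reads on the reverse strand, and in Tap2 at -41.
Tap1: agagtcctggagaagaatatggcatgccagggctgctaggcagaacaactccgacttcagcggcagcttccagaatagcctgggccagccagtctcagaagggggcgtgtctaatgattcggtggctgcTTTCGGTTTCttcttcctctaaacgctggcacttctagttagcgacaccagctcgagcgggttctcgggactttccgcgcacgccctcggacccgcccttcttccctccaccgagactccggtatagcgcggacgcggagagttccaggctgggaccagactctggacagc
Tap2: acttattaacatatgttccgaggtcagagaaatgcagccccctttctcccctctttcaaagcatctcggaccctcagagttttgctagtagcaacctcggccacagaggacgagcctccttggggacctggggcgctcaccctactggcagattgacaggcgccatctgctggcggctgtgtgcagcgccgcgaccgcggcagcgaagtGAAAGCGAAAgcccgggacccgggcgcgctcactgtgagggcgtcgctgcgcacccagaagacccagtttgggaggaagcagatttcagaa
Their coordinates are chr20:4668494-4668793 (strand -, Tap1) and chr20:4652247-4652546 (strand -, Tap2). Tap1 and Tap2 lie close together on chromosome 20, with 1 protein-coding gene between them in the RefSeq order. Of 9 member pairs with at most 4 protein-coding genes between them, Spint1 and Rhov on chromosome 3 were direct neighbours, as were Dlgap1 and Tgif1 on chromosome 9. Nectin2, Pvr and Cblc lay near each other on chromosome 1, and RT1-N2 and RT1-S3 on chromosome 20.

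Carboxylesterases and other enzymes, with the glycogen-binding protein Stbd1 placed among them, made up 10 members. Ces2a, a carboxylesterase that cleaves esters of drugs and lipids, stood at 0.28 and 0.23 TPM in the controls, 2.00 and 0.69 TPM in the TP libraries and 20.2 and 22.9 TPM in the exosome-treated libraries. Ces2j, of the same family, stood at 0.26 and 0.26 TPM in the controls, 2.44 and 0.17 TPM in the TP libraries and 15.5 and 21.8 TPM in the exosome-treated libraries. Ces2i was lower throughout, at 0.02, 0.06, 0.45, 0.03, 3.27 and 4.33 TPM in the same order. The 3 carboxylesterases shared a pattern in which the treated pair was highest and TP replicate 1 came next in TPM, above the controls and TP replicate 2. Reads of such similar genes can be split between copies, so their separate levels are uncertain. Faah, which breaks down endocannabinoids, was 1.51, 2.12, 1.74, 1.37, 10.9 and 14.4 TPM, and Pon3, a lactonase, 0.98, 1.15, 1.78, 8.34, 11.1 and 15.9 TPM. Ugt1a6, a glucuronosyltransferase whose reads can be shared with other genes of its locus, was highest in TP replicate 2 at 41.2 TPM, against 21.5 and 25.5 TPM in the treated pair. Pdk4, a kinase that holds back pyruvate oxidation, was low throughout, at 3.43 and 6.08 TPM in the treated pair.

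Of 9 genes of stress, arrest and cell death 3 were highest in the treated pair in TPM (Gdf15, Sfn and Tmbim1). Cdkn1a, the cell cycle inhibitor p21, stood at 2.64 and 3.90 TPM in the controls, 1.78 and 30.6 TPM in the TP libraries and 26.7 and 37.5 TPM in the exosome-treated libraries. Gdf15, a secreted stress hormone, stood at 0.84 and 1.41 TPM in the controls, 1.53 and 8.81 TPM in the TP libraries and 10.3 and 15.2 TPM in the exosome-treated libraries. Hspa1b, an inducible heat shock protein with a near-identical copy, stood at 0.12 and 0.50 TPM in the controls, 0.87 and 36.4 TPM in the TP libraries and 20.1 and 23.1 TPM in the exosome-treated libraries. All 3 were low in the controls and in TP replicate 1, while TP replicate 2 lay between the treated libraries for Cdkn1a, below them for Gdf15 and above them for Hspa1b. Cflar, an inhibitor of caspase-8, Sh3glb1, a membrane-curving protein, Phlda1 and Tp53i11 were also not highest in TPM. Sfn, a 14-3-3 protein of epithelial cells, was 0.21, 0.51, 0.14, 3.09, 3.87 and 3.23 TPM in the same order. Among the gene lists Cdkn1a was the 1 member of 21 cell cycle and p53 genes, Gdf15 of 23 integrated stress response genes, and Cflar of 16 genes of death receptors and apoptosis. In the last list 7 had a margin above 0, against 12.4% of all tested genes, and 0 were highest in the treated pair in TPM.

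Small GTPases and cytoskeletal genes gave 8 members. Rhov and Rhou, atypical small GTPases, were 1.70, 1.56, 2.27, 5.22, 18.5 and 26.3 TPM and 1.38, 2.07, 2.19, 6.90, 16.8 and 17.7 TPM, both highest in the treated pair. Rnd1, which loosens cell contacts, was 0.08, 0.19, 0.22, 5.37, 5.63 and 5.71 TPM, with TP replicate 2 just below the treated pair. Stmn4, Mapt and Klc3, microtubule proteins best known from neurons or sperm, lay at 6.74, 3.67 and 4.69 TPM or lower. Nes, nestin, an intermediate filament of progenitor and stellate cells, was highest in TP replicate 2 at 5.40 TPM. Of 29 tested genes on the list of cytoskeletal and calcium-binding proteins 0 were members.

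Signals and regulators made up 12 members. Calcb, which encodes a calcitonin gene-related peptide, stood at 0.57 and 0.63 TPM in the controls, 1.61 and 0.71 TPM in the TP libraries and 32.9 and 32.9 TPM in the exosome-treated libraries. The treated libraries were nearly equal and TP replicate 1 came next. Tead2, a transcription factor of the Hippo pathway, stood at 0.13 and 0.18 TPM in the controls, 0.24 and 3.30 TPM in the TP libraries and 7.39 and 15.1 TPM in the exosome-treated libraries. Efna1, an ephrin ligand, was 0.65, 1.44, 1.43, 9.45, 11.3 and 20.5 TPM and Cblc, an epithelial ubiquitin ligase acting on receptors, 0.69, 0.64, 1.01, 0.16, 8.18 and 10.6 TPM. Vhl, a ubiquitin ligase subunit of the oxygen-sensing pathway, was 1.80, 2.98, 2.58, 13.1, 15.5 and 19.6 TPM. Cx3cl1, the chemokine fractalkine, was 0.22, 0.20, 0.22, 0.97, 2.07 and 2.97 TPM. The factors Tgif1 and Klf11, the phosphatase Ptpn2, Stk38l and Arrdc1 had TP replicate 2 above the lower treated library. No gene of the list of IL-6, STAT3 and acute-phase genes, 23 tested, was a member.

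Other members had no shared role. Dlgap1, a scaffold protein of synapses, stood at 0.55 and 0.90 TPM in the controls, 1.82 and 5.40 TPM in the TP libraries and 24.8 and 36.0 TPM in the exosome-treated libraries. Fam111a, a protease that restricts viruses, stood at 0.09 and 0.35 TPM in the controls, 0.42 and 7.63 TPM in the TP libraries and 15.7 and 17.6 TPM in the exosome-treated libraries, and Shisa4, a membrane protein, at 0 and 0.28 TPM in the controls, 0 and 6.16 TPM in the TP libraries and 13.5 and 18.5 TPM in the exosome-treated libraries. In the latter pair TP replicate 2 alone of the other libraries passed 1 TPM. Of the trafficking genes Rab30 was highest in the treated pair, and Rab11fip5 and Zfyve19 were not. Rnu11, the U11 small nuclear RNA, and 7SK were listed at 0 in both controls and TP replicate 1, and neither was highest in TPM; Rnu11 had the same values as 3 genes with clone names in all 6 libraries, so its level cannot be assigned to 1 locus. Of the remaining members, those named here (Tmem171, Igsf9, Ccdc120, Cnppd1, Gtpbp2, Tmem106c, Phldb3, Ppdpf, Prtfdc1, Polb, Prnp, Itpkc, Stbd1, Gal3st1, B3gnt7 and Fchsd1) had margins from 1.02 to 1.83. Of the 29 gene lists 10 held a member and 19 held 0, among them those of the unfolded protein response, hypoxia, ribosome biogenesis and every other cell type.

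The rule did not use the GO annotation in the deposited table, which gave a further description. Its name filter had removed 4 claudin and 5 keratin genes that met the gap. The counts of members leave these out, whereas the tested genes were not filtered by name. Of the 99 members with a term, 24 (24.2%) were annotated to the plasma membrane, against 10.4% of 10821 tested genes with a term. The bicellular tight junction was named for 5 (Cxadr, Epcam, F11r, Micall2 and Tjp3; 5.05%, against 0.518%), and the cell-cell adherens junction for 4 (Arvcf, Cdh1, Jup and Pvr; 4.04%, against 0.425%). Terms were picked after the counts were seen, and no test was made. The nucleus was named for 15 (15.2%, against 20.1%). Gene length was similar, with a median of 1922.5 bases against 1978 over all tested genes. Members were more abundant in the treated pair, with a median of the mean at 13.3 TPM against 3.62 TPM, which the rule favours.

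The rule asked for high values in both exosome-treated libraries. In 95 members they lay within 2-fold in TPM, against 92.2% of all tested genes, and replicate 2 was the higher in 95, against 83.7% of all tested genes. After scaling replicate 2 was higher in 67, against 50.2% of all tested genes, and the median difference was 0.10 (log2), with a range from -1.46 to 1.13. The lowest value came from Ly6c, the only member with replicate 1 more than 2-fold above replicate 2 in TPM.

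Untreated injury against control was the comparison that the rule did not set, although it holds both groups below the treated pair. With limma on the scaled values, 0 of 100 members and 0% of 11477 genes passed an adjusted p of 0.05; the smallest adjusted p among the members was 0.71. At an unadjusted p below 0.05, 3 members were higher in the TP group (Sectm1b, Hspa1b and Fam111a) and 3 lower (RT1-N2, Gtpbp2 and Stmn4), against 3.74% and 2.08% of all tested genes. The log2 differences of the members ranged from -1.91 to 1.99, with a median of -0.03 and a median standard error of 0.38. Both TP libraries lay above both controls in 19 members, against 18.3% of all tested genes, and below them in 14, against 12.2%. A fit without 1 TP library leaves that group no spread of its own, so calls from such fits are not read here. Scaled log2 values of TP replicate 2 minus the control mean ran from -4.28 (Epcam) to 2.88 (7SK) over the members. The median was -0.20, against 0.055 over all tested genes. For TP replicate 1 the differences ran from -1.26 (Ubd) to 2.42 (Ces2j), with a median of 0.11 against 0.039. The rule caps both TP libraries and both controls, which bears on these values.

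**Figure D4:**
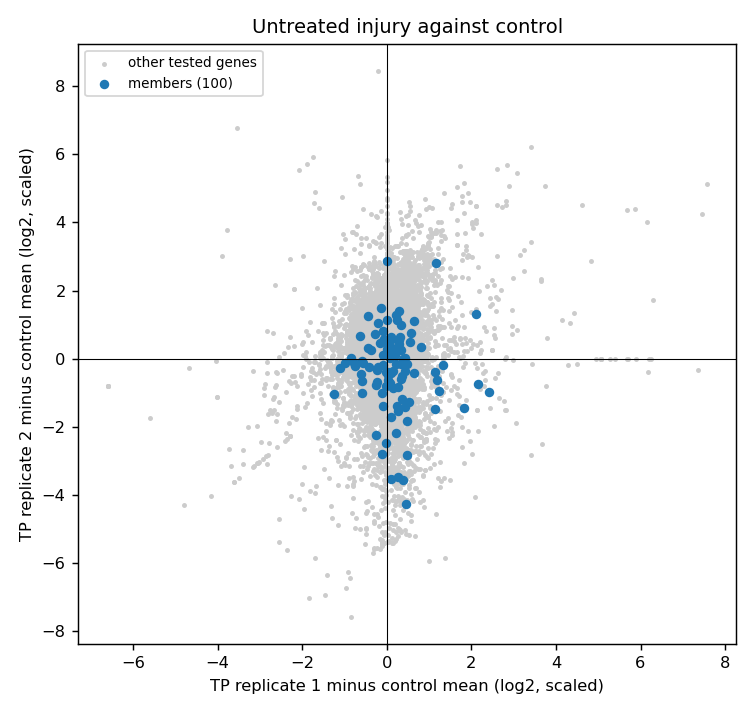
Each point is a gene, with TP replicate 1 minus the control mean on the horizontal axis and TP replicate 2 minus the control mean on the vertical axis (log2, scaled); blue points are the 100 members and grey points the other tested genes. Members spread from -1.26 to 2.42 on the horizontal axis and from -4.28 to 2.88 on the vertical axis, around medians of 0.11 and -0.20.

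The TP libraries placed the members differently. TP replicate 1 lay above both controls in 49 members, against 34.9% of all tested genes, and below both in 22, against 25.9%. TP replicate 2 lay above both controls in 34, against 43.9%, and below both in 56, against 39.0%. Because the rule caps the TP libraries and the controls, these shares depend in part on the choice. The next highest library after the treated pair, on the scaled values, was TP replicate 1 for 37 members, TP replicate 2 for 27, control replicate 1 for 22 and control replicate 2 for 14. Of the contrasts that the rule used, limma called 0.0174% of genes in each (2 of 11477), Slc26a9 among them, and nothing is read from this. No gene of the 29 lists was called in any of the 3 comparisons.

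**Figure D5:**
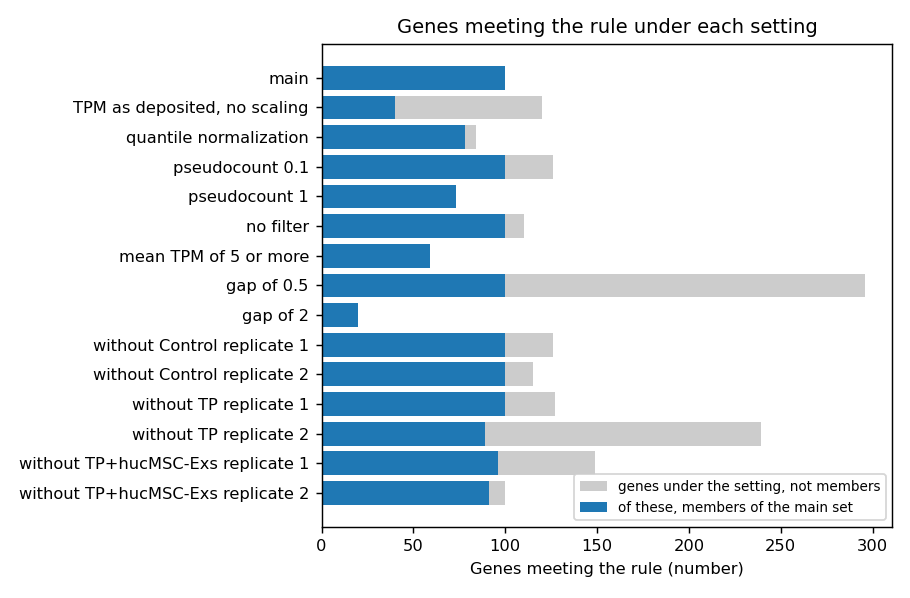
Number of genes with kept names that met the rule under each setting; the blue part of a bar counts the 100 members among them and the grey part other genes. Without scaling 120 genes met the rule, 40 of them members, and without TP replicate 2 it was 239, 89 of them members.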

How the data were processed

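Gene expression in 6 pancreas libraries was taken from the TPM values per gene that the authors deposited, 34001 genes in 1 table. No source used here says which aligner or quantifier made them. Rat Ensembl identifiers stand in the table, whereas mouse builds (GRCm38, mm10) stand in the submitters' processing notes; no coordinates were therefore taken from it. TP columns carry a number that no label explains and were matched by name.

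Genes with a mean of at least 1 TPM were scaled by median of ratios and fitted as log2(x + 0.5) over all 6 libraries. The fit used limma 3.58.1 in R 4.3.3 (variance trend, Benjamini-Hochberg adjustment, 3 residual degrees of freedom). A run on simulated data, with 1 spread per gene for all 6 libraries, checked only the median estimate of planted changes. It did not model a library set apart as TP replicate 2 was. P-values measure the spread between rats, pooled over the groups. Alternatives were other scalings, pseudocounts, filters and gaps, no trend, fewer samples and a replicate block. Depth is unknown from TPM.

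The members and the 29 gene lists were chosen with earlier results of these data known. Named genes were the 30 widest margins, the 10 highest mean TPM in the treated pair, members on a list, the 5 nearest the limit on each side and up to 2 abundant genes of a list. All other members, the roles, GO terms and promoters, and Itga6, Elf3, Cd24, Sox9, Cftr and the stomach genes were chosen after their values were seen. Some items are not reported here.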

Additional observations from a re-analysis of the deposited data

How the results depend on the processing

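Membership depended on the scaling and on TP replicate 2. Against 100 members of the set, the rule gave 59 with a mean of 5 TPM or more, 296 with a gap of 0.5, 20 with a gap of 2 and 120 on TPM without scaling, of which 40 were members. With quantile normalization it gave 84, of which 78 were members. Leaving out 1 library gave 100 to 239, the highest without TP replicate 2 (89 members among them). On TPM as deposited, without scaling, the margin turned negative for 35 members, among them Tap2 -0.65, Tap1 -0.46, Cdkn1a -0.19, RT1-S3 -0.58, Stk38l -0.38, Mx2 -0.11, Anxa3 -0.53, Phlda1 -0.4, Arrdc1 -1.07, Tp53i11 -0.13, Rhbdf2 -0.86, Cflar -0.73, Zfyve19 -0.37, Ppdpf -0.22, Sh3glb1 -1.03, Lxn -0.91, Tgif1 -0.25, Ptpn2 -0.97, B3gnt7 -0.3, Cnppd1 -0.79, Nes -0.39, Ugt1a6 -0.92, Polb -0.15, Pvr -0.94, Prnp -0.99, Micall2 -0.64, Prtfdc1 -0.24, Fchsd1 -0.59, Hspa1b -0.84, Tes -0.66, Rnu11 -0.02, Klf11 -0.54, Rab11fip5 -0.94 and 7SK -0.88. No other setting turned a margin.

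Counts of genes called by limma are given for TP against control, TP+hucMSC-Exs against TP and TP+hucMSC-Exs against control in that order, where the reported counts were 0, 2 and 2. They were 6, 8 and 24 on TPM without scaling, 0, 0 and 0 with quantile normalization, 0, 0 and 0 with a pseudocount of 0.1, 0, 1 and 1 with a pseudocount of 1, 0, 0 and 0 with no filter, 0, 0 and 0 at a mean of 5 TPM, 0, 1 and 1 with no variance trend, and 0, 0 and 189 with only the groups compared. Leaving out 1 library gave 0 to 2813, 0 to 1363 and 0 to 639. The highest were without TP replicate 1 for the first 2 comparisons and without TP replicate 2 for the last; the lone TP library was then assumed to vary like the other groups. Members called in TP against control numbered 0 to 29. With the replicate block the counts were 0, 0 and 0; the labels tie the replicate numbers to no shared litter, batch or day. Deviations of same-numbered libraries correlated at 0.395, 0.105 and 0.15 between groups, and 2 numbers are too few to settle whether they pair the libraries. With 2 rats per group and unknown depth, values below 1 TPM bear little weight, and the cause of these shifts was not tested.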
